A study of Mus musculus with 12 samples.

Results

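The genes of fatty acid synthesis and its main regulators were examined in mouse liver as a set of 10 genes, taken as the rows of the count table whose symbol was *Srebf1*, *Mlxipl*, *Acly*, *Acaca*, *Acacb*, *Fasn*, *Scd1*, *Elovl5*, *Elovl6* or *Gpam*. All 10 were found among the 24411 genes of the table, and all 10 were among the 13922 genes that passed the filter on low counts and were tested. Poly(A) RNA was sequenced from whole livers of 3 genotypes with 3 mice each, at 3 months of age, on a C57BL/6 background and a standard diet. All 9 mice carried floxed *Atg7* on both alleles. Cont. mice had no Cre. *Atg7*-KO mice also carried Alb-Cre, a Cre driven by the albumin promoter that removes *Atg7* in hepatocytes. Liver cells in which this Cre is not active keep the gene. *Atg7*-KO;p62T352A mice carried Alb-Cre and, on both alleles of *Sqstm1*, the gene for p62, a threonine-to-alanine exchange (p62T352A) that had been introduced by prime editing in mouse embryonic stem cells. p62 holds KEAP1, the repressor of the transcription factor NRF2, and the exchange was made by the study so that p62 no longer retains KEAP1. Labels also exist for 3 mice with floxed *Atg7* and the exchange but no Cre, which were not analysed here.

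In the liver, surplus carbohydrate is turned into fat by a short chain of enzymes. ATP citrate lyase (*Acly*) makes cytosolic acetyl-CoA from citrate, the acetyl-CoA carboxylases (*Acaca*, *Acacb*) make malonyl-CoA, and fatty acid synthase (*Fasn*) joins these units to palmitate. Elongases such as *Elovl6* and *Elovl5* lengthen the chain, stearoyl-CoA desaturase (*Scd1*) places a double bond, and glycerol-3-phosphate acyltransferase (*Gpam*, the mitochondrial form) attaches the first fatty acid to glycerol on the way to triglyceride. Transcription of these genes is driven by SREBP-1c, a product of *Srebf1* that responds to insulin, and by ChREBP, the product of *Mlxipl*, which responds to glucose.

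The libraries held 9671080 to 23285132 counts in cont. mice, 16157269 to 18480553 in *Atg7*-KO mice and 16133620 to 17357172 in *Atg7*-KO;p62T352A mice. *Atg7* was at 44.2 to 55.4 normalized CPM (counts over library totals in units of 1e+06 counts, after scaling between libraries) in cont. mice, 9.57 to 12.0 in *Atg7*-KO mice and 27.4 to 29.7 in *Atg7*-KO;p62T352A mice. The level in the last group lay between the other two without overlap, with a rise against *Atg7*-KO of 1.45 ± 0.17 (log2, adjusted p = 1.64e-04 by edgeR). Whether less complete deletion or more RNA from cells without Cre raised *Atg7* in *Atg7*-KO;p62T352A livers was not tested. Nor was the part of this *Atg7* difference in the comparisons between both genotypes with Alb-Cre. Summed marker levels of other liver cells were lower there than in *Atg7*-KO mice. For Kupffer cells and macrophages they were 165 to 305 normalized CPM (*Atg7*-KO: 574 to 618), although 2 of 9 markers rose. Stellate cell markers were at 358 to 595 (854 to 1004) and endothelial ones at 223 to 254 (354 to 374). Lymphocyte markers were at 26.0 to 32.6 (67.8 to 77.0). Summed hepatocyte markers were higher, at 127114 to 153486 (38821 to 41414). *Nqo1*, an NRF2 target, was at 6.36 to 12.2 normalized CPM in cont., 175 to 249 in *Atg7*-KO mice and 11.7 to 18.4 in *Atg7*-KO;p62T352A mice. *Sqstm1* itself was at 314 to 505, 871 to 959.7 and 497 to 626 normalized CPM in cont., *Atg7*-KO and *Atg7*-KO;p62T352A mice. All 9 hepatocyte markers examined (among them albumin, *Alb*) were present in every mouse, and of 8 adipocyte markers 6 were too low to be tested, with *Adipoq*, *Plin1*, *Lep* and *Retn* at 0 to 0.287 normalized CPM. Mouse 1 of each genotype had almost no *Xist*, the RNA of the inactive X chromosome, with 0.401 to 1.35 normalized CPM against 373 to 2015 in the other 6 mice.

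Cont. mouse 1 stood apart from the other cont. mice. It had the most counts of the 9 libraries, and several of its circadian clock genes were at other levels, some lower and some higher. It was also the cont. mouse with almost no *Xist*, at 0.401 normalized CPM against 1181 and 2015 in cont. mice 2 and 3. *Dbp*, a clock output gene chosen here after its values were seen, was at 0.860 normalized CPM in cont. mouse 1 against 79.8 and 193 in cont. mice 2 and 3. The *Atg7*-KO mice had 1.02, 4.27 and 3.37 and the *Atg7*-KO;p62T352A mice 1.000, 0.981 and 0.783 normalized CPM of *Dbp*. *Per2*, a core repressor of the clock, was at 9.17, 45.5 and 58.0 in cont. mice 1, 2 and 3, at 4.55 to 6.70 in *Atg7*-KO mice and at 11.6 to 28.8 in *Atg7*-KO;p62T352A mice. For both genes the level in cont. mouse 1 lay nearer to those of the other genotypes than to those of its own group. The hour at which each liver was taken is not given in the sources used here. Comparisons with cont. were therefore also run without cont. mouse 1, and with cont. mouse 1 as the only cont. mouse, a setting added after the values were seen. Each setting also changes the mix of mice with and without *Xist* in cont. but not in the other genotypes. With cont. mouse 1 alone, its spread is assumed to equal that of the other genotypes. For the 10 genes the values of both settings are given where they changed a call, and for the other genes named where a call against cont. was gained or lost. Without that mouse 28% of all tested genes rose and 28% fell in *Atg7*-KO against cont., and with it alone 19.1% rose and 19.4% fell. The same settings gave 10.7% and 12.2%, and 16.5% and 17.4%, in *Atg7*-KO;p62T352A against cont.

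The 3 comparisons differed in which of the 10 genes moved. A gene is said to rise or fall where its Benjamini-Hochberg adjusted p from edgeR's quasi-likelihood test was under 0.05 over all tested genes and its fold change over 1.5. In *Atg7*-KO against cont., 0 of 10 rose and 3 fell, *Srebf1*, *Mlxipl* and *Acacb*. Of all tested genes 21.6% rose and 22.1% fell in that comparison. DESeq2 likewise called 0 rises, and 2 genes were higher at an unadjusted p under 0.05. Between *Atg7*-KO;p62T352A and *Atg7*-KO mice, *Mlxipl* and *Elovl5* rose and *Acaca* and *Gpam* fell, which is 2 of 10 in each direction, against 24.7% of all tested genes that rose and 26.2% that fell. In *Atg7*-KO;p62T352A against cont., 0 rose and 2 fell, *Acacb* and *Gpam*, against backgrounds of 6.25% and 5.34%. Here too DESeq2 called 0 rises, and 1 gene was higher at an unadjusted p under 0.05. The median log2 fold change of the 10 genes was -0.29, 0.18 and -0.49 in these comparisons, in that order, against -0.03, 0.00 and 0.00 over all tested genes. The 3 comparisons share their mice in pairs, and their values are given side by side for each gene.

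**Figure D1:**
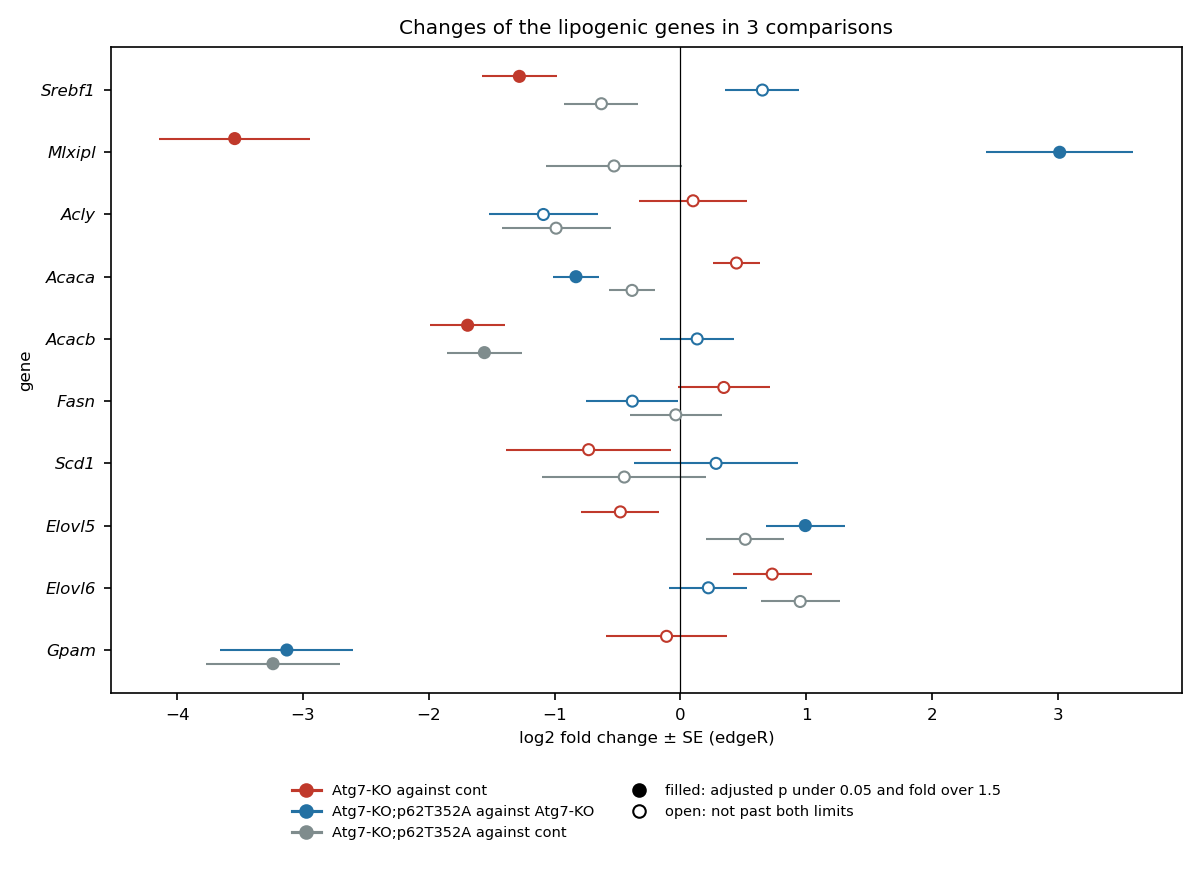
Log2 fold change with its SE (horizontal axis) of the 10 lipogenic genes (vertical axis) in 3 comparisons, from edgeR with 3 mice per genotype. Filled points passed both limits. *Mlxipl* has the lowest value of the plot in *Atg7*-KO against cont. (-3.54) and the highest in *Atg7*-KO;p62T352A against *Atg7*-KO (3.01), and *Gpam* lies at -3.13 and -3.24 in the comparisons of *Atg7*-KO;p62T352A mice with *Atg7*-KO and cont. mice.

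Of the regulators, *Mlxipl*, which encodes ChREBP, had the widest range. It lies on the plus strand at chr5:135089890-135138382 (GENCODE annotation of GRCm38). Cont. mice 1, 2 and 3 had 293, 1534 and 1918 normalized CPM of *Mlxipl*. *Atg7*-KO mice had 93.7, 118 and 110.0, and *Atg7*-KO;p62T352A mice had 1109.6, 565 and 924. All *Atg7*-KO mice were thus below every other mouse, while the *Atg7*-KO;p62T352A mice lay within the range of cont., whose mouse 1 was far below the other cont. mice. *Mlxipl* fell 11.7-fold in *Atg7*-KO against cont. (log2 fold change -3.54 ± 0.60 SE, adjusted p = 0.00137) and rose 8.08-fold in *Atg7*-KO;p62T352A against *Atg7*-KO (3.01 ± 0.59, adjusted p = 0.00226). Between *Atg7*-KO;p62T352A and cont. the difference of -0.53 ± 0.54 did not pass (adjusted p = 0.571).

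The choice of cont. mice decided the direction of that last value. Without cont. mouse 1, *Mlxipl* fell in *Atg7*-KO;p62T352A against cont. (-0.99 ± 0.27, adjusted p = 0.0233). With cont. mouse 1 as the only cont. mouse it rose (1.43 ± 0.37, adjusted p = 0.0177), where the spread of the single mouse is assumed to equal that of the other genotypes. The fall in *Atg7*-KO against cont. was called in both settings, at -4.01 ± 0.28 (adjusted p = 4.91e-06) without cont. mouse 1 and at -1.59 ± 0.31 (adjusted p = 0.00514) against cont. mouse 1 alone.

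The promoter windows of *Mlxipl* are shown because both regulators of the pathway have a known DNA motif and the gene changed the most in *Atg7*-KO against cont. Each is the 250 bases before a transcription start in RefSeq (GRCm38.p6), written 5′ to 3′ on the gene's plus strand. In the window at chr5:135089640-135089889 the capitals mark, in order, a GC box, a CCAAT box in reverse, an E-box and a further GC box. The GC box was searched as GGGCGG. The E-box was searched as CACGTG, a core that ChREBP and other factors bind. In the window before the inner start, at chr5:135106641-135106890, the capitals mark a match to the SREBP consensus TCACNCCAC.
Mlxipl, outer start: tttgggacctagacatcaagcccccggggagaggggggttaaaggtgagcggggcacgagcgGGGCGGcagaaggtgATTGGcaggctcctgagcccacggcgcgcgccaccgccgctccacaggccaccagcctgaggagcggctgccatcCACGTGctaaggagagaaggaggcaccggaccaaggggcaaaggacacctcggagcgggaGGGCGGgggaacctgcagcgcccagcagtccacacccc
Mlxipl, inner start: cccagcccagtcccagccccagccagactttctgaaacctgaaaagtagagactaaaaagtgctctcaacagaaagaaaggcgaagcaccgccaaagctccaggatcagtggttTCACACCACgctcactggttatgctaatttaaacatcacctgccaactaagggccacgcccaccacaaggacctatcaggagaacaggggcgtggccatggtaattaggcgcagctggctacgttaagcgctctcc
Windows were available for 9 of the 10 genes, with 13 windows in all and none for *Scd1*. For *Acaca* and *Acacb* the only window lay before an inner start, at chr11:84195438 and chr5:114165518. The annotated genes begin at 84129672 and 114146535, and no window before these ends was searched. The E-box was found in 2 of the genes, *Mlxipl* (first base at position -98, counted back from -1 at the base before the start) and *Elovl5* (position -161), and in 6.02% of the 32851 windows of all genes. The SREBP consensus was found in 1 of the genes, *Mlxipl*, and in 1.05% of all windows. The D-box (TTANGTAA), which DBP, TEF and HLF bind, was found in 0 of the genes and in 2.06% of all windows. Both strands were searched, and a match describes letters only. A gene was counted with a match in any of its windows, while the shares are per window.

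*Srebf1*, which encodes SREBP-1, lies on the minus strand at chr11:60199089-60222581. Cont. mice had 342, 270.2 and 391 normalized CPM, *Atg7*-KO mice 142, 134 and 137, and *Atg7*-KO;p62T352A mice 332, 160.5 and 157. The *Atg7*-KO mice were below all others and close to each other, and of the *Atg7*-KO;p62T352A mice only mouse 1 lay within the range of cont. *Srebf1* fell 2.43-fold in *Atg7*-KO against cont. (-1.28 ± 0.30, adjusted p = 0.00679). In *Atg7*-KO;p62T352A against *Atg7*-KO its difference was 0.65 ± 0.29 (adjusted p = 0.0859) and against cont. -0.63 ± 0.29 (adjusted p = 0.195). Without *Atg7*-KO;p62T352A mouse 1 these values were 0.21 ± 0.21 (adjusted p = 0.431) and -1.07 ± 0.22 (adjusted p = 0.0321), and the latter then passed as a fall. The counts do not separate the transcripts of SREBP-1a and SREBP-1c, and *Rai1* overlaps *Srebf1* on the opposite strand.

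**Figure D2:**
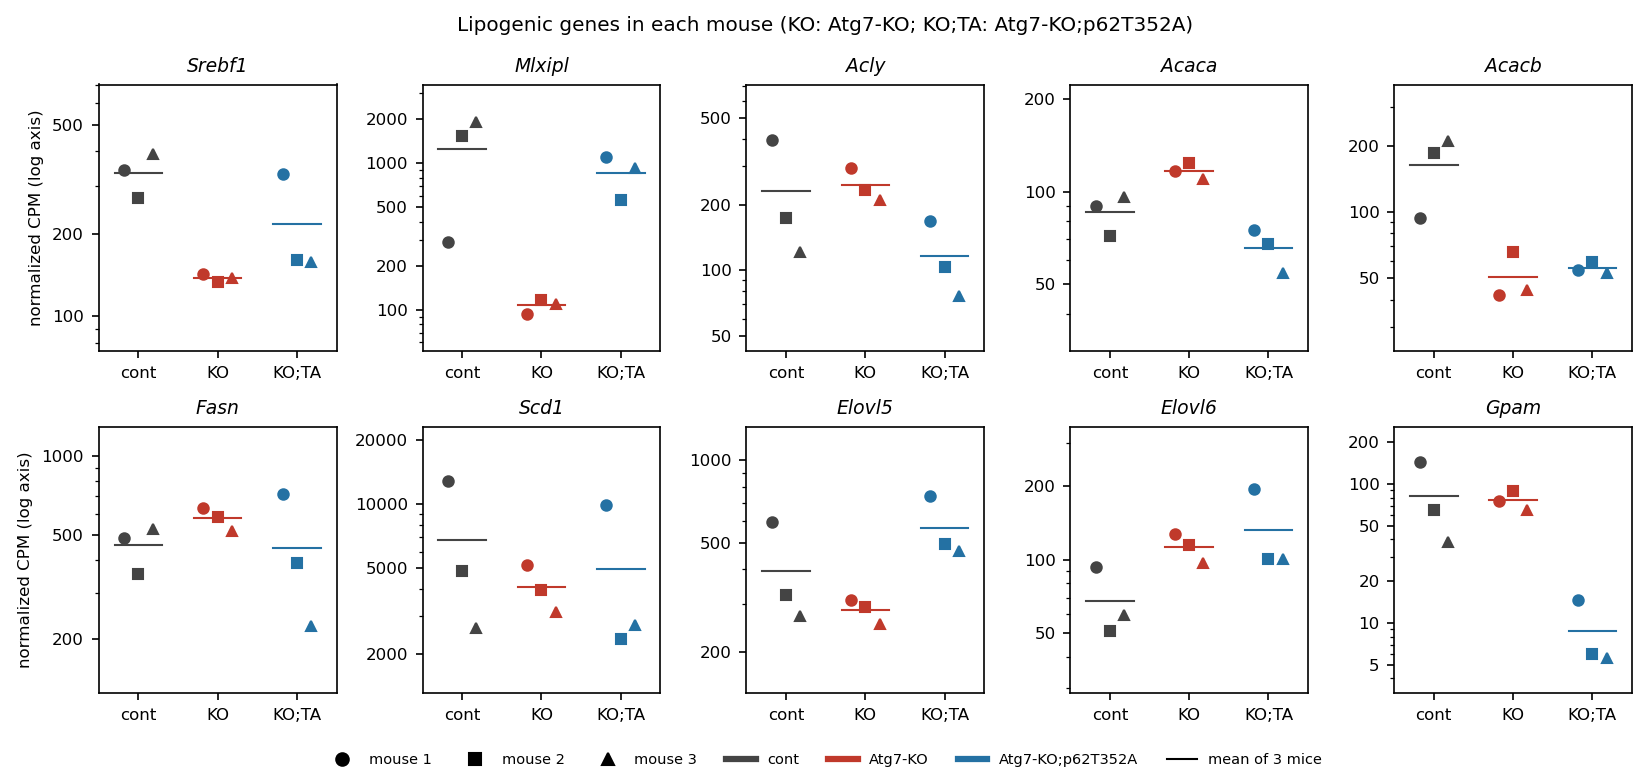
Normalized CPM on a log axis (vertical) of the 10 lipogenic genes in each mouse, grouped by genotype (horizontal). Symbols mark mouse 1 (circle), 2 (square) and 3 (triangle), and lines the arithmetic mean of 3 mice. *Gpam* in *Atg7*-KO;p62T352A mice (5.61 to 14.7) lies below all other mice, *Mlxipl* and *Srebf1* in *Atg7*-KO mice lie below all other mice, and the circle is the highest *Scd1* value in every genotype.

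*Acly*, the first enzyme of the pathway, lies on the minus strand at chr11:100476353-100528000. It had 396, 173 and 122 normalized CPM in cont., 296, 234 and 211 in *Atg7*-KO mice and 169, 103 and 76.4 in *Atg7*-KO;p62T352A mice. All *Atg7*-KO;p62T352A mice were below all *Atg7*-KO mice, while cont. overlapped both. The difference between *Atg7*-KO;p62T352A and *Atg7*-KO was -1.09 ± 0.43 (adjusted p = 0.0570), just short of the threshold. It passed in 9 of 18 other settings, with adjusted p between 0.00225 and 0.177. *Atg7*-KO against cont. gave 0.10 ± 0.43 (adjusted p = 0.863), and *Atg7*-KO;p62T352A against cont. -0.99 ± 0.43 (adjusted p = 0.170). Against cont. mouse 1 alone the latter passed as a fall (-1.90 ± 0.36, adjusted p = 0.00528).

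The carboxylases changed in different comparisons. *Acaca* encodes the cytosolic form, which supplies malonyl-CoA to fatty acid synthase, and *Acacb* the form at the mitochondrial outer membrane, whose malonyl-CoA restrains the uptake of fatty acids for oxidation. *Acaca* (plus strand, chr11:84129672-84401651) had 89.6, 71.6 and 95.9 normalized CPM in cont., 117, 124 and 109.6 in *Atg7*-KO mice and 75.1, 67.7 and 54.2 in *Atg7*-KO;p62T352A mice. The *Atg7*-KO mice were the highest 3 of the 9, without overlap with either group. *Acaca* fell 1.78-fold in *Atg7*-KO;p62T352A against *Atg7*-KO (-0.83 ± 0.18, adjusted p = 0.00448), whereas the values of 0.45 ± 0.18 for *Atg7*-KO against cont. (adjusted p = 0.0717) and -0.38 ± 0.18 for *Atg7*-KO;p62T352A against cont. (adjusted p = 0.204) did not pass. Of the 75-base stretches of *Acaca* transcripts 26.8% also occur in another gene, mostly *Gm5182*, so that reads may have been split between the copies.

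*Acacb* (plus strand, chr5:114146535-114250761) had 94.4, 186 and 211 normalized CPM in cont., 41.9, 65.7 and 44.2 in *Atg7*-KO mice and 54.6, 59.3 and 52.6 in *Atg7*-KO;p62T352A mice. All cont. mice were above all mice of both other genotypes, and mouse 1 was again the lowest of cont. *Acacb* fell 3.23-fold in *Atg7*-KO (-1.69 ± 0.30, adjusted p = 0.00179) and 2.94-fold in *Atg7*-KO;p62T352A mice (-1.56 ± 0.30, adjusted p = 0.0138) against cont. The genotypes with Alb-Cre differed from each other by 0.13 ± 0.29 (adjusted p = 0.720). Against cont. mouse 1 alone both falls were smaller, -1.04 ± 0.23 (adjusted p = 0.00900) and -0.89 ± 0.24 (adjusted p = 0.0197), and both still passed. The fall in *Atg7*-KO;p62T352A mice did not pass without *Atg7*-KO;p62T352A mouse 3 (-1.52 ± 0.37, adjusted p = 0.0609).

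*Fasn* and *Scd1*, common readouts of lipogenesis, did not pass in any of the 3 comparisons. *Fasn* (minus strand, chr11:120805846-120824547) had 485, 355 and 525 normalized CPM in cont., 632, 583 and 518 in *Atg7*-KO mice and 717, 389.5 and 224 in *Atg7*-KO;p62T352A mice. The groups overlapped, and the *Atg7*-KO;p62T352A mice held both the highest and the lowest value of the 9 mice. *Fasn* differed by 0.35 ± 0.36 in *Atg7*-KO against cont. (adjusted p = 0.461), by -0.38 ± 0.36 in *Atg7*-KO;p62T352A against *Atg7*-KO (adjusted p = 0.397) and by -0.04 ± 0.36 in *Atg7*-KO;p62T352A against cont. (adjusted p = 0.963). Without *Atg7*-KO;p62T352A mouse 1, *Fasn* fell against *Atg7*-KO (-0.91 ± 0.30, adjusted p = 0.0364).

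*Scd1* (minus strand, chr19:44394455-44407879) was among the 20 genes with the most counts. It had 12813, 4874 and 2640.5 normalized CPM in cont., 5176, 3966 and 3118 in *Atg7*-KO mice and 9863, 2343 and 2716 in *Atg7*-KO;p62T352A mice. Mouse 1 was the highest of each genotype, 3.41 times the mean of the other mice in cont. and 3.90 times in *Atg7*-KO;p62T352A mice, and the groups overlapped throughout. The differences of *Scd1* were -0.73 ± 0.66 in *Atg7*-KO against cont., 0.28 ± 0.65 in *Atg7*-KO;p62T352A against *Atg7*-KO and -0.45 ± 0.65 in *Atg7*-KO;p62T352A against cont. (adjusted p = 0.385, 0.732 and 0.702). These errors were the largest of the 10 genes in each comparison.

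The elongases of the set each came close to or passed the threshold in another comparison. *Elovl5* elongates polyunsaturated fatty acids and lies on the plus strand at chr9:77917364-77984519. It had 597, 321 and 271 normalized CPM in cont., 309.9, 290.4 and 254 in *Atg7*-KO mice and 739, 495 and 466 in *Atg7*-KO;p62T352A mice. The *Atg7*-KO;p62T352A mice were all above the *Atg7*-KO mice, and cont. overlapped both. *Elovl5* rose 1.99-fold in *Atg7*-KO;p62T352A against *Atg7*-KO (0.99 ± 0.31, adjusted p = 0.0229). The call was lost without any 1 of the *Atg7*-KO mice or without *Atg7*-KO;p62T352A mouse 1, with adjusted p between 0.0530 and 0.0897. *Atg7*-KO against cont. gave -0.48 ± 0.31 (adjusted p = 0.234) and *Atg7*-KO;p62T352A against cont. 0.52 ± 0.31 (adjusted p = 0.312), and the latter passed as a rise without cont. mouse 1 (0.94 ± 0.23, adjusted p = 0.0156). Against cont. mouse 1 alone *Elovl5* fell in *Atg7*-KO mice (-1.21 ± 0.27, adjusted p = 0.00833).

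*Elovl6*, which elongates palmitate to stearate, lies on the plus strand at chr3:129532355-129638495. It had 93.3, 51.2 and 59.5 normalized CPM in cont., 128, 114 and 96.6 in *Atg7*-KO mice and 194, 100.4 and 101 in *Atg7*-KO;p62T352A mice. Every mouse with Alb-Cre was above every cont. mouse. Yet the differences from cont. of 0.73 ± 0.31 in *Atg7*-KO (adjusted p = 0.0813) and 0.95 ± 0.31 in *Atg7*-KO;p62T352A mice (adjusted p = 0.0784) did not pass. Without cont. mouse 1 both passed, at 1.03 ± 0.29 (adjusted p = 0.0122) and 1.25 ± 0.29 (adjusted p = 0.0137), whereas against cont. mouse 1 alone they were 0.14 ± 0.37 and 0.37 ± 0.37 (adjusted p = 0.792 and 0.468).

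*Gpam*, the step into triglyceride, changed the most in *Atg7*-KO;p62T352A mice. It lies on the minus strand at chr19:55067268-55127238. It had 144, 65.0 and 38.1 normalized CPM in cont., 75.6, 88.8 and 65.2 in *Atg7*-KO mice and 14.7, 5.95 and 5.61 in *Atg7*-KO;p62T352A mice, the last from 206, 85 and 86 counts. Every *Atg7*-KO;p62T352A mouse was below every other mouse, and *Atg7*-KO mice lay within the range of cont. *Gpam* fell 8.74-fold against *Atg7*-KO (-3.13 ± 0.53, adjusted p = 0.00110) and 9.44-fold against cont. (-3.24 ± 0.53, adjusted p = 0.00937), and the difference between *Atg7*-KO and cont. was -0.11 ± 0.48 (adjusted p = 0.867). Both falls passed in all 18 other settings. Without cont. mouse 1 the fall against cont. was -2.56 ± 0.39 (adjusted p = 0.00278), and against cont. mouse 1 alone it was -4.18 ± 0.41 (adjusted p = 4.61e-04). The 3 tested genes that lie within 500.0 kb of *Gpam* had log2 fold changes between -0.68 and 0.21 in *Atg7*-KO;p62T352A against cont.. Against *Atg7*-KO 1 of the 3 fell (*Vti1a*), with values between -0.76 and 0.12.

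The promoter windows of *Gpam* are shown because this gene separated the *Atg7*-KO;p62T352A mice from both other genotypes. They are the 250 bases before each RefSeq start (GRCm38.p6), 5′ to 3′ on the gene's minus strand, at chr19:55127239-55127488 for the outer and chr19:55099478-55099727 for the inner start. Capitals mark a CCAAT box in reverse (from position -74) in the first and a GC box in reverse (from position -16) in the second.
Gpam, outer start: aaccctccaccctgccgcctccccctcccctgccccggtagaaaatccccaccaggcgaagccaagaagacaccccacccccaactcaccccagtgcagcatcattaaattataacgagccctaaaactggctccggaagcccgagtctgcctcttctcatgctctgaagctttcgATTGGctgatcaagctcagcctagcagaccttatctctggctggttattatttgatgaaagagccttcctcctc
Gpam, inner start: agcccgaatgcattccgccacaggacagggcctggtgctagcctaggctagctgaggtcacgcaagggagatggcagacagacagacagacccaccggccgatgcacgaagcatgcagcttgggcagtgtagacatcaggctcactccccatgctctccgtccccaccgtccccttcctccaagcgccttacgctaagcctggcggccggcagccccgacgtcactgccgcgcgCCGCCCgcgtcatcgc
Neither window holds an E-box or the SREBP consensus in these letters. CCAAT boxes were found in 6 of the 9 genes with a window and in 33.8% of all windows. GC boxes were found in 4 of these 9 genes and in 32.7% of all windows. A gene was counted with a match in any of its windows, so the counts and the shares differ in unit.

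Each enzyme has relatives, and levels per kb of transcript show which form made up a family. Of the RNA for both stearoyl-CoA desaturases tested, *Scd1* and *Scd2*, *Scd2* made up 0.108% ± 0.0687 (mean and SD of 3 mice) in cont. mice. The share was 5.61% ± 0.971 in *Atg7*-KO mice and 0.211% ± 0.129 in *Atg7*-KO;p62T352A mice. *Acacb* made up 65.8% ± 11.0 of both carboxylases in cont., 31.6% ± 4.34 in *Atg7*-KO mice and 48.0% ± 3.64 in *Atg7*-KO;p62T352A mice. The mice of the latter genotypes did not overlap. The sum of both carboxylases was 27.6 ± 7.01, 18.0 ± 2.17 and 13.2 ± 1.33 normalized CPM per kb in the 3 genotypes. From *Atg7*-KO to *Atg7*-KO;p62T352A mice, *Acacb* went from 5.76 ± 1.49 to 6.32 ± 0.393 and *Acaca* from 12.3 ± 0.760 to 6.90 ± 1.11 per kb. *Gpam* made up 26.7% ± 14.6 of the 4 glycerol-3-phosphate acyltransferases in cont., 38.6% ± 3.03 in *Atg7*-KO mice and 4.32% ± 2.09 in *Atg7*-KO;p62T352A mice. The sum of the 4 was 46.4 ± 7.49, 31.2 ± 2.38 and 31.0 ± 3.32 normalized CPM per kb in the 3 genotypes. *Agpat6*, a form of the endoplasmic reticulum, held 80.7% ± 2.19 of this sum in *Atg7*-KO;p62T352A mice. Of 6 elongases, *Elovl7* made up 12.2% ± 1.58 in *Atg7*-KO against 0.0323% ± 0.0287 in cont., and *Elovl3* 1.31% ± 1.22 against 43.5% ± 17.7. Among the 10 genes themselves, *Scd1* had the highest level per kb in every genotype, with a mean of 846 ± 214 to 1402 ± 1106 normalized CPM per kb, and *Acaca* the lowest in cont. with 9.01 ± 1.33, *Acacb* in *Atg7*-KO with 5.76 ± 1.49 and *Gpam* in *Atg7*-KO;p62T352A mice with 1.38 ± 0.812.

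**Figure D3:**
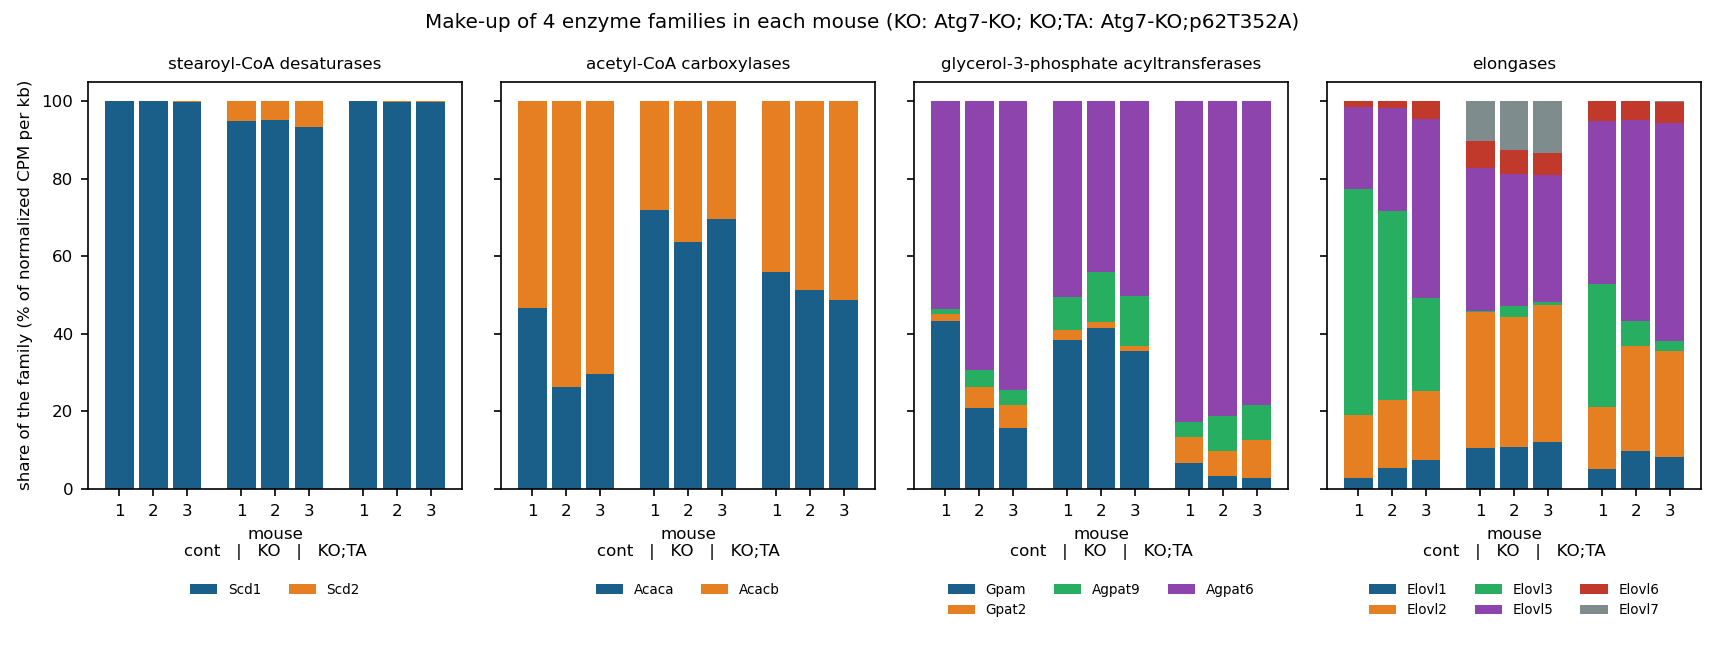
Share of each gene in 4 enzyme families (vertical axis, % of the summed normalized CPM per kb) in each mouse (horizontal axis, mice 1 to 3 of cont., *Atg7*-KO and *Atg7*-KO;p62T352A). *Scd2* and *Elovl7* are visible in *Atg7*-KO mice, *Acacb* is below 40% of the carboxylases there, and *Gpam* is below 7% of the acyltransferases in *Atg7*-KO;p62T352A mice.

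The spread within genotypes was itself uneven. The coefficient of variation over 3 mice had a median of 40.9% across the 10 genes in cont., 12.6% in *Atg7*-KO mice and 41.0% in *Atg7*-KO;p62T352A mice. Mouse 1, the mouse without *Xist* in each genotype, was the highest of 3 for 5 of 10 genes in cont., 6 in *Atg7*-KO mice and 9 in *Atg7*-KO;p62T352A mice. It was the lowest for *Mlxipl* and *Acacb* in cont. and in *Atg7*-KO. The exception among *Atg7*-KO;p62T352A mice was *Acacb*. Mice 2 and 3 alone, compared in all 3 genotypes, gave 1 rise (*Elovl6*) and 3 falls in *Atg7*-KO against cont., the falls being *Srebf1*, *Mlxipl* and *Acacb*, against 27.1% and 27.3% of all genes tested in these mice.

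The genes of the pathway outside the set were described by lists of related genes. The count of each list below stands beside the shares of all tested genes. These were 21.6% rises and 22.1% falls in *Atg7*-KO against cont., and 24.7% and 26.2% in *Atg7*-KO;p62T352A against *Atg7*-KO. In *Atg7*-KO;p62T352A against cont. they were 6.25% and 5.34%. Of 22 other enzymes of fatty acid synthesis, elongation and desaturation, 5 rose and 5 fell in *Atg7*-KO against cont. The median log2 fold change of the 22 was -0.02 there, near the -0.03 of all tested genes. *Elovl7*, an elongase of long-chain fatty acids, had 0.860, 0.189 and 0.550 normalized CPM in cont. and 127, 156 and 151 in *Atg7*-KO mice (7.97 ± 0.49, adjusted p = 1.28e-05). *Scd2*, the desaturase that predominates in brain, had 9.68, 3.88 and 5.60 in cont. and 313, 236 and 254 in *Atg7*-KO mice (5.37 ± 0.36, adjusted p = 1.40e-05). *Elovl3* fell from 1159.7, 418 and 99.4 to 2.71, 16.4 and 4.22 (-6.17 ± 1.47, adjusted p = 0.00761). *Fads3*, a member of the desaturase cluster, rose from 4.18, 10.9 and 5.71 to 24.6, 30.7 and 30.9 (2.06 ± 0.31, adjusted p = 7.95e-04). *Mlycd*, which breaks malonyl-CoA down, and *Tecr*, the reductase of the last elongation step, fell by 0.86 (SE 0.21, adjusted p = 0.00791) and 0.80 (SE 0.20, adjusted p = 0.00956) on the log2 scale. In *Atg7*-KO;p62T352A mice *Elovl7* was at 0.700 to 1.96 and *Scd2* at 6.93 to 9.46 normalized CPM. Their differences from cont. there were 1.04 ± 0.50 (adjusted p = 0.208) and 0.28 ± 0.31 (adjusted p = 0.602), and that of *Scd2* passed as a rise without cont. mouse 1 (0.74 ± 0.24, adjusted p = 0.0443). Between *Atg7*-KO;p62T352A and *Atg7*-KO mice, 4 of the 22 rose and 6 fell, and against cont. 1 rose and 2 fell. *Hacd2*, a dehydratase of fatty acid elongation, was the rise, with 67.0 to 78.3 normalized CPM in cont. and 108 to 114 in *Atg7*-KO;p62T352A mice (0.63 ± 0.15, adjusted p = 0.0260). The falls were *Fads2*, the first desaturase of polyunsaturated fatty acids (-1.49 ± 0.36, adjusted p = 0.0296), and *Acss2*, which makes acetyl-CoA from acetate (-1.11 ± 0.29, adjusted p = 0.0391). Against cont. mouse 1 alone the *Atg7*-KO counts were 4 rises and 10 falls, and without that mouse 10 rises and 4 falls. For *Atg7*-KO;p62T352A against cont. the same settings gave 0 rises and 7 falls, and 4 rises and 2 falls. Against cont. mouse 1 alone *Hacd2* did not pass in either genotype (0.38 ± 0.16 in both, adjusted p = 0.0797 in *Atg7*-KO and 0.0907 in *Atg7*-KO;p62T352A mice), and *Acss2* passed as a fall in *Atg7*-KO mice too (-1.04 ± 0.30, adjusted p = 0.0240).

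Of 26 regulators and cofactors of lipogenesis, 5 rose and 7 fell in *Atg7*-KO against cont., 9 rose and 6 fell in *Atg7*-KO;p62T352A against *Atg7*-KO, and 1 rose and 1 fell in *Atg7*-KO;p62T352A against cont. Their median log2 fold changes were -0.50, 0.34 and -0.11. Without cont. mouse 1 the counts against cont. were 7 rises and 10 falls in *Atg7*-KO and 3 and 3 in *Atg7*-KO;p62T352A mice, and against that mouse alone 4 and 11, and 4 and 7. *Scap*, which escorts SREBP to the Golgi for cleavage, had 149, 145 and 147 normalized CPM in cont., 56.7, 63.2 and 60.5 in *Atg7*-KO mice and 128, 118 and 121 in *Atg7*-KO;p62T352A mice. It fell in *Atg7*-KO with little spread between mice (-1.29 ± 0.14, adjusted p = 1.63e-04). *Thrsp* (Spot 14), an activator of lipogenesis, fell from 251, 191 and 459.7 to 107, 98.7 and 72.7 (-1.70 ± 0.57, adjusted p = 0.0336), and against cont. mouse 1 alone its value of -1.57 ± 0.68 did not pass (adjusted p = 0.0981). *Ppargc1b*, a coactivator of SREBP-1, had 3.21, 33.9 and 29.3 in cont. and 1.64, 1.89 and 1.96 in *Atg7*-KO mice (-3.58 ± 0.73, adjusted p = 0.00360), and against cont. mouse 1 alone its value of -0.94 ± 0.45 did not pass (adjusted p = 0.126). *Ppargc1b* in *Atg7*-KO;p62T352A against cont. passed as a fall without cont. mouse 1 (-1.16 ± 0.28, adjusted p = 0.0154) and as a rise against that mouse alone (2.00 ± 0.46, adjusted p = 0.0118). *Pparg*, which drives fat storage in adipocytes, was at 7.66 to 10.7 in cont. and at 26.6 to 29.1 in *Atg7*-KO mice (1.57 ± 0.21, adjusted p = 3.97e-04). *Fgf21*, a hormone of the fasting liver, rose from 0.0573, 1.23 and 0.440 to 6.48, 6.29 and 5.97 (3.55 ± 0.64, adjusted p = 0.00192), and in *Atg7*-KO;p62T352A mice it passed as a rise against cont. mouse 1 alone (4.85 ± 0.79, adjusted p = 0.00284). *Mbtps2*, the site-2 protease that releases SREBP, rose by 1.10 on the log2 scale (SE 0.18, adjusted p = 0.00109). In *Atg7*-KO;p62T352A against cont. the rise was *Nr0b2*, the nuclear receptor SHP (1.07 ± 0.25, adjusted p = 0.0256), and the fall *Irs2*, an adaptor of the insulin receptor, which had 9.28, 5.67 and 53.1 normalized CPM in cont. and 2.07, 1.82 and 4.90 in *Atg7*-KO;p62T352A mice (-2.93 ± 0.78, adjusted p = 0.0391). *Nr0b2* passed as a fall in *Atg7*-KO mice against cont. mouse 1 alone (-0.81 ± 0.28, adjusted p = 0.0484), and *Irs2* without that mouse (-1.89 ± 0.67, adjusted p = 0.0333).

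In glycerolipid synthesis after *Gpam*, 3 of 17 genes rose and 4 fell in *Atg7*-KO against cont., and 0 rose and 0 fell in *Atg7*-KO;p62T352A against cont. by edgeR. At an unadjusted p under 0.05, 1 was higher and 1 lower in the latter, and DESeq2 called 0 higher and 1 lower. Without cont. mouse 1 the counts were 2 rises and 7 falls in *Atg7*-KO and 0 and 1 in *Atg7*-KO;p62T352A mice, and against cont. mouse 1 alone 6 rises and 3 falls, and 4 and 2. The list's median log2 fold changes were -0.16 in *Atg7*-KO against cont., 0.37 between the genotypes with Alb-Cre and 0.04 in *Atg7*-KO;p62T352A against cont. *Dgat2*, the acyltransferase of the last step to triglyceride, had 615, 478 and 653 normalized CPM in cont., 215, 258 and 249.5 in *Atg7*-KO mice and 359, 428 and 391 in *Atg7*-KO;p62T352A mice (*Atg7*-KO against cont. -1.27 ± 0.19, adjusted p = 7.04e-04). Against cont. mouse 1 alone *Dgat2* passed as a fall in *Atg7*-KO;p62T352A mice (-0.77 ± 0.20, adjusted p = 0.0176). *Agpat6* fell by 1.00 (SE 0.17, adjusted p = 0.00121) and *Gpat2*, another acyltransferase of the first step, by 1.77 (SE 0.42, adjusted p = 0.00761) on the log2 scale, and *Gpat2* did not pass against cont. mouse 1 alone (-0.85 ± 0.42, adjusted p = 0.135). *Mogat2*, which acylates monoacylglycerol, had 0, 0.284 and 0.550 normalized CPM in cont. and 6.53, 6.37 and 5.29 in *Atg7*-KO mice (4.67 ± 0.77, adjusted p = 0.00124). *Agpat9*, a further acyltransferase of the first step, rose by 1.30 (SE 0.41, adjusted p = 0.0255), and *Lpin3*, a relative of *Lpin1*, by 0.79 (SE 0.29, adjusted p = 0.0462) on the log2 scale. *Agpat9* and *Gpat2* in *Atg7*-KO;p62T352A mice passed as rises against cont. mouse 1 alone (1.48 ± 0.49, adjusted p = 0.0448, and 1.26 ± 0.42, adjusted p = 0.0461). *Lpin3* had a fold change under 1.5 in *Atg7*-KO without cont. mouse 1 (0.50 ± 0.18, adjusted p = 0.0367), and fell in *Atg7*-KO;p62T352A mice in that setting (-0.86 ± 0.19, adjusted p = 0.0103). *Lpin1*, a phosphatidate phosphatase named here after its values were seen, had 119.8, 746 and 635 in cont., 140.3, 126 and 118 in *Atg7*-KO mice and 524, 447 and 569 in *Atg7*-KO;p62T352A mice. The level of *Lpin1* in cont. mouse 1 lay among those of *Atg7*-KO mice. It fell in *Atg7*-KO against cont. (-1.96 ± 0.52, adjusted p = 0.0128) but differed by -0.04 ± 0.21 from cont. mouse 1 alone (adjusted p = 0.900), against which it passed as a rise in *Atg7*-KO;p62T352A mice (1.97 ± 0.24, adjusted p = 9.35e-04).

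Of 12 genes of glucose handling under ChREBP or insulin, 1 rose and 5 fell in *Atg7*-KO against cont., and 6 rose and 1 fell in *Atg7*-KO;p62T352A against *Atg7*-KO, with medians of -0.45 and 0.58. *Gckr*, the regulator of glucokinase, had 118, 450.2 and 540.1 normalized CPM in cont., 62.7, 68.9 and 64.2 in *Atg7*-KO mice and 363, 269.8 and 365 in *Atg7*-KO;p62T352A mice. It fell in *Atg7*-KO (-2.50 ± 0.46, adjusted p = 0.00216), also against cont. mouse 1 alone (-0.99 ± 0.20, adjusted p = 0.00606), where it rose in *Atg7*-KO;p62T352A mice (1.37 ± 0.23, adjusted p = 0.00327). The rise in *Atg7*-KO was *Arrdc4*, an arrestin-domain gene related to *Txnip* (0.64 ± 0.20, adjusted p = 0.0288, and 0.38 ± 0.16, adjusted p = 0.0913, against cont. mouse 1 alone). *Tkfc*, the triokinase of fructose metabolism, rose in *Atg7*-KO;p62T352A against cont. (1.02 ± 0.22, adjusted p = 0.0209, and 0.78 ± 0.31, adjusted p = 0.0793, against cont. mouse 1 alone). *G6pc* and *Pck1*, enzymes of glucose production, fell by 2.26 (SE 0.41, adjusted p = 0.00196) and 2.08 (SE 0.25, adjusted p = 2.23e-04) on the log2 scale. *Pklr*, the liver pyruvate kinase that is a classical ChREBP target and was named here after its values were seen, differed by 0.29 ± 0.30 (adjusted p = 0.458). Of 9 targets of the sterol receptor LXR outside the set, with a median of -0.34, 2 rose and 1 fell in *Atg7*-KO against cont., with *Lpl*, the lipoprotein lipase, at 19.1 to 32.4 in cont. and 264 to 292 in *Atg7*-KO mice (3.39 ± 0.27, adjusted p = 3.16e-05). *Abcg1*, a cholesterol exporter, was the other rise (2.09 ± 0.16, adjusted p = 2.50e-05), and *Cyp7a1*, the rate-limiting enzyme of bile acid synthesis, the fall (-1.95 ± 0.56, adjusted p = 0.0176). In *Atg7*-KO;p62T352A against cont. *Lpl* rose (2.04 ± 0.26, adjusted p = 0.00490), and *Mylip*, which degrades the LDL receptor, and *Abca1*, another cholesterol exporter, fell (-1.55 ± 0.20, adjusted p = 0.00490, and -0.91 ± 0.22, adjusted p = 0.0277). Of the 9, 3 fell in *Atg7*-KO without cont. mouse 1 and 4 against that mouse alone. *Abca1* passed as a fall in *Atg7*-KO mice against cont. mouse 1 alone (-0.87 ± 0.18, adjusted p = 0.00703).

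Other measurements moved with these changes. Of 15 clock genes, 11 fell in *Atg7*-KO against cont. (median log2 fold change -1.22), and 7 fell against cont. mouse 1 alone. Between *Atg7*-KO;p62T352A and *Atg7*-KO mice, 4 of the 15 rose and 0 fell (median 0.67), against 24.7% and 26.2% of all tested genes. Against cont., 1 fell in *Atg7*-KO;p62T352A mice (*Dbp*), and 8 fell and 2 rose without cont. mouse 1. The fall of *Dbp* was -6.62 ± 1.48 (adjusted p = 0.0231), and against cont. mouse 1 alone the value was -0.03 ± 0.81 (adjusted p = 0.982). *Nr1d1*, the clock repressor REV-ERBα, had 45.6, 244 and 353 normalized CPM in cont., 10.7, 33.6 and 36.1 in *Atg7*-KO mice and 88.1, 86.4 and 79.0 in *Atg7*-KO;p62T352A mice. Like *Mlxipl*, *Acacb* and *Lpin1*, it was lowest in mouse 1 of cont. Other clock genes, named here after their values were seen, were highest in that mouse. In cont. mice 1, 2 and 3, *Arntl* had 38.5, 16.2 and 9.34 normalized CPM and *Clock* 78.5, 46.9 and 31.9. *Npas2* had 14.3, 6.24 and 2.53, *Cry1* 26.9, 12.6 and 5.28, and *Hlf* 44.3, 42.8 and 37.5. *Tef*, *Nr1d1* and *Per2*, the 3 falls named by size in *Atg7*-KO against cont. (-3.29 ± 0.70, -2.99 ± 0.67 and -2.77 ± 0.62, adjusted p = 0.00430, 0.00584 and 0.00562), did not pass against cont. mouse 1 alone (adjusted p = 0.115, 0.175 and 0.177). They passed in *Atg7*-KO;p62T352A mice as falls without cont. mouse 1 (adjusted p = 0.00107, 0.0107 and 0.0124). The part of the clock genes, or of the time of sampling, in the values of the lipogenic genes was not tested.

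**Figure D4:**
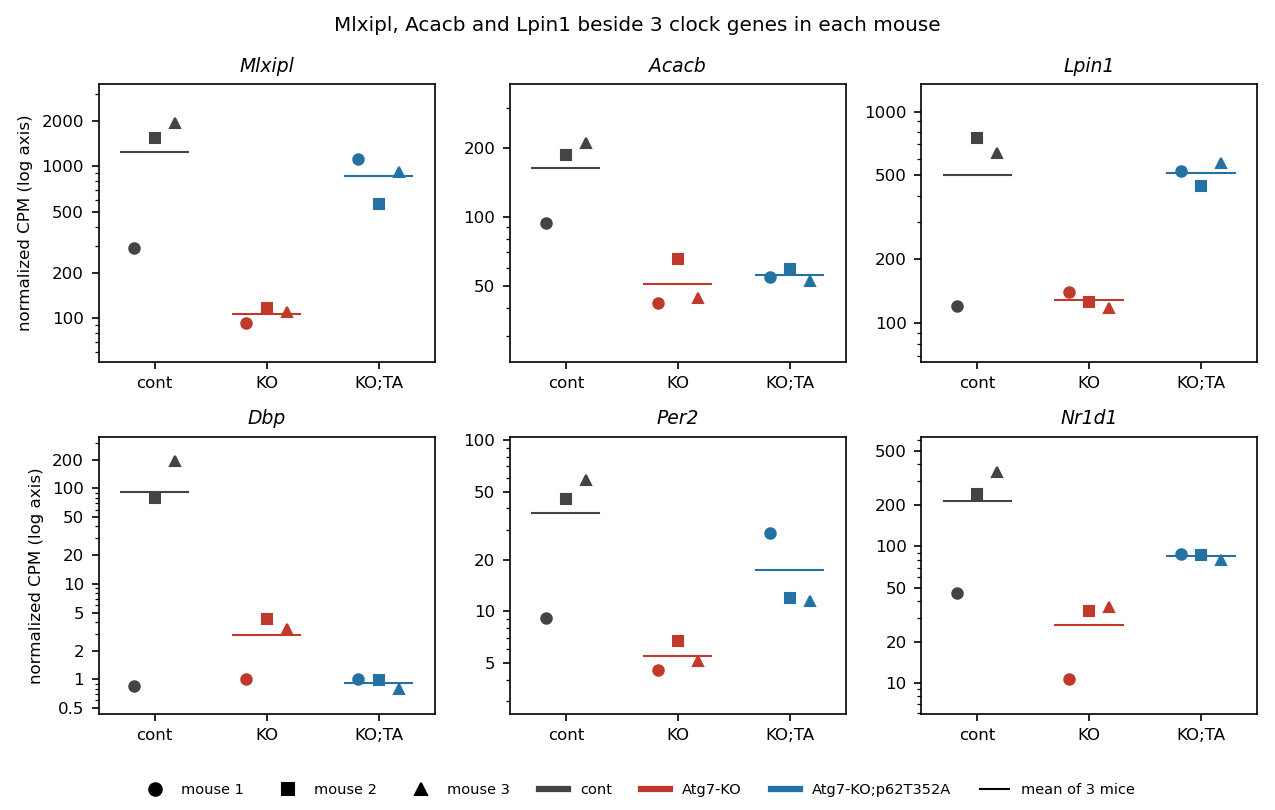
Normalized CPM on a log axis (vertical) of *Mlxipl*, *Acacb* and *Lpin1* beside the clock genes *Dbp*, *Per2* and *Nr1d1* in each mouse, by genotype (horizontal). In all 6 panels cont. mouse 1 (circle) is the lowest of the cont. mice, for *Dbp* at 0.860 against 79.8 and 193. The panels are a selection. The clock genes *Arntl*, *Clock*, *Npas2*, *Cry1* and *Hlf*, not shown, were highest of cont. in that mouse.

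Marker genes of liver cell types differed as well. Of all tested genes 21.6% rose and 22.1% fell in *Atg7*-KO against cont., and 6.25% and 5.34% in *Atg7*-KO;p62T352A against cont. Of 9 hepatocyte markers, 8 fell in *Atg7*-KO against cont., and their summed level was 38821 to 41414 normalized CPM against 103172 to 141901 in cont. and 127114 to 153486 in *Atg7*-KO;p62T352A mice. Of 9 Kupffer cell and macrophage markers, 6 rose and 1 fell in *Atg7*-KO (summed level 574 to 618 against 228 to 270.4 in cont. and 165 to 305 in *Atg7*-KO;p62T352A mice). Of 8 cholangiocyte markers, 6 rose (859 to 1053 against 67.0 to 70.4 and 206 to 290.3). Most of this sum in both genotypes with Alb-Cre was *Spp1*, named here after its values were seen. *Spp1* was at 771 to 967 normalized CPM in *Atg7*-KO mice, 24.4 to 43.0 in cont. and 135 to 227 in *Atg7*-KO;p62T352A mice. Of 8 stellate cell markers, 6 rose (854 to 1004 against 247 to 298 and 358 to 595), and of 9 lymphocyte markers, 5 rose (67.8 to 77.0 against 18.6 to 36.7 and 26.0 to 32.6). Of 8 sinusoidal endothelial markers, 3 rose and 1 fell in *Atg7*-KO, and 5 fell in *Atg7*-KO;p62T352A against cont. (summed level 223 to 254 against 343 to 560.2). Of the adipocyte markers, 2 of 8 were tested, with 1 rise and 1 fall in *Atg7*-KO. In bulk liver, fewer hepatocytes and less RNA per hepatocyte cannot be told apart, and the part of these shifts in the values of the lipogenic genes was not tested.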

How the data were processed

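Poly(A) RNA of livers had been sequenced by the authors as single-end reads, trimmed with Trim Galore per the labels, aligned by STAR to the mm10 build and passed to RSEM. The table deposited by the authors holds RSEM expected counts per gene in 1 column for each mouse, unscaled. The annotation, the versions and the strand setting of the counting are not given in the sources used here, so that reads of overlapping genes on opposite strands cannot be told apart. The methods name TRIzol for the extraction, the labels a column kit. Columns were assigned to mice through genotype and number in the labels, which do not say whether mice were littermates, and 3 labelled mice without a column were not analysed here.

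Expected counts were rounded to whole numbers and fitted in R 4.3.3 with edgeR 4.0.16 (filterByExpr by genotype, TMM scaling, glmQLFit and glmQLFTest, the 3 genotypes in 1 fit without a block). Calls needed a fold change over 1.5 and an FDR (Benjamini-Hochberg) under 0.05, the limits of the study. SE is the absolute log2 fold change divided by the square root of F. Levels between genes are per kb of the union of exons (GENCODE). Promoters came from a RefSeq table. Alternatives were DESeq2 1.42.0, its size factors in edgeR, upper-quartile scaling, no filter, a stricter one (10 counts or more in each mouse), a replicate block, a fit lacking the 20 most counted genes, mice 2 and 3 alone, FDR alone, and each mouse left out. Cont. mouse 1 as the only cont. mouse was added after seeing the data. In the simulated comparison of *Atg7*-KO with cont., 95.5% of 200 genes changed 4-fold were recovered, and 9 unchanged genes were called among 13671 genes. The simulation gave every gene and genotype a dispersion of 0.08. In the data the median coefficient of variation of the 10 genes was 40.9% in cont. and 12.6% in *Atg7*-KO mice. The simulation therefore does not give the recovery or the false calls for genes with the spread of these mice. Tables and figures were made in Python 3.11.15.

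The 10 genes and the gene lists were chosen with earlier results of these data known. Of each list, up to 3 called genes with the largest rise and 3 with the largest fall in either comparison with cont. were to be named, given a mean of at least 1 normalized CPM and no overlap between mice, and other named genes are marked as such. Lists of cell type markers are given by counts and summed levels instead.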

Additional observations from a re-analysis of the deposited data

How the results depend on the processing

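Of the values that passed, the falls of *Srebf1*, *Mlxipl* and *Acacb* in *Atg7*-KO against cont., the rise of *Mlxipl* and the falls of *Acaca* and *Gpam* in *Atg7*-KO;p62T352A against *Atg7*-KO, and the fall of *Gpam* against cont. passed in all 18 other settings. *Acacb* in *Atg7*-KO;p62T352A against cont. passed in 17 and *Elovl5* in *Atg7*-KO;p62T352A against *Atg7*-KO in 14 of 18. Settings that leave out only mice of the genotype outside a comparison keep its mice and change only the shared filter, scaling and spread.

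With a replicate block for the number of the mouse, 1 gene rose against cont. in each genotype with Alb-Cre, *Elovl6* in both (0.78, adjusted p = 0.0203, and 0.93, adjusted p = 0.0405, by edgeR), against 0 without the block. *Gpam* turned to 0.14 in *Atg7*-KO against cont. and *Scd1* to -0.036 in *Atg7*-KO;p62T352A against *Atg7*-KO. The numbers share no stated litter or day. Mouse 1 of each genotype did share an almost absent *Xist*, at 0.401 to 1.35 normalized CPM against 373 to 2015 in mice 2 and 3. The block therefore also takes up differences between mice with and without *Xist*, and mice 2 and 3 alone all have *Xist*. The part of this difference in the values was not tested. Deviations of mice with the same number correlated by -0.202 to 0.321 over 9 pairs, and 6 of 9 mice matched best with their own number.

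With mice 2 and 3 alone, 1 gene rose in *Atg7*-KO against cont. (*Elovl6*), 4 fell against *Atg7*-KO (*Acly*, *Acaca*, *Fasn*, *Gpam*), and 2 rose (*Elovl5*, *Elovl6*) and 4 fell (*Srebf1*, *Mlxipl*, *Acacb*, *Gpam*) against cont. in *Atg7*-KO;p62T352A mice. Of all genes tested in these mice, 26.3% rose and 27.6% fell against *Atg7*-KO, and 9.35% and 11.8% against cont. *Gpam* turned to 0.58 in *Atg7*-KO against cont., and *Scd1* to -0.48 and *Elovl6* to -0.069 in *Atg7*-KO;p62T352A against *Atg7*-KO. With cont. mouse 1 as the only cont. mouse, 1 gene rose in *Atg7*-KO;p62T352A against cont., *Mlxipl* at 1.43, *Elovl5* turned to -0.21 there and *Acly* to -0.82 in *Atg7*-KO against cont. Upper-quartile scaling moved the median of all genes from -0.03 to 0.08 in *Atg7*-KO against cont. and from 0.00 to -0.13 in *Atg7*-KO;p62T352A against *Atg7*-KO, where *Acacb* turned to -0.0022. The cause of these turns was not tested, and none of the turned values but *Mlxipl* passed.

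Leaving out 1 mouse at a time gave 0 to 1 rises and 3 to 3 falls in *Atg7*-KO against cont., 1 to 2 rises and 2 to 4 falls in *Atg7*-KO;p62T352A against *Atg7*-KO, and 0 to 2 rises and 1 to 3 falls against cont. Its values ran from -0.21 to 0.74 for *Acly*, -1.12 to 0.12 for *Scd1* and -0.46 to 0.57 for *Gpam* in *Atg7*-KO against cont., from -0.69 to 0.63 for *Scd1* and -0.16 to 0.39 for *Elovl6* in *Atg7*-KO;p62T352A against *Atg7*-KO, and from -0.57 to 0.28 for *Fasn* and -1.42 to 0.41 for *Scd1* against cont. *Scd1* has no value where the 20 genes with the most counts were left out, being one of them. Among the fits with 1 mouse left out, the share of all tested genes is given here only for that without cont. mouse 1.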

Other observations

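The genes whose log2 CPM followed the mean z-score of the 10 lipogenic genes most closely over 9 mice, among 8499 genes with a mean of at least 10.0 normalized CPM, were *Exph5* (Pearson r = 0.942), *Acsl3* (0.915), *Slc2a2* (0.910), *Fitm1* (0.898) and *Ptpn3* (0.882). The 9 points share 3 genotypes and their libraries, and the mean z-score ran from -0.778 in *Atg7*-KO;p62T352A mouse 3 to 0.691 in cont. mouse 1.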
